A study of Homo sapiens with 12 samples.

Results

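The comparison described here is that of cereblon (CRBN)-high with CRBN-low myeloma cells while both were under lenalidomide. It consists of 2 contrasts, My5/CRBN+Len72hrs against My5/LV+Len72hrs and My5/CRBN+Len120hrs against My5/LV+Len120hrs, which have no array in common. They use 4 of the 12 arrays of the series and all 372 human miRNA assays of each array, so no miRNA was left out.

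OCI-My5 is a human multiple myeloma cell line. My5/LV cells were OCI-My5 cells infected with the lentivirus vector alone, express little CRBN and are resistant to lenalidomide. My5/CRBN cells were infected with lentiviral particles carrying a human CRBN cDNA, express more CRBN and are sensitive to the drug. Both lines were kept in 10 µM lenalidomide for 72 h (3 days) or for 120 h (5 days), and total RNA of each culture was run on a single miScript miRNA PCR array. All 4 cultures therefore carry a lentiviral insert and had the drug, and they differ in the CRBN cDNA and in the time. The untreated My5/LV and My5/CRBN cells, and cells of both lines given a cDNA of EIF2C2 (AGO2) before 72 h of lenalidomide, are used below only for reference. The lines are infected populations sorted for GFP, 1 of each kind, so an effect of CRBN and any other difference between these populations cannot be told apart.

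Cereblon is the substrate receptor of a cullin-RING ubiquitin ligase. Lenalidomide binds to it and directs the ligase to the lymphoid transcription factors IKZF1 and IKZF3, which are then degraded. miRNAs are short RNAs that are cut from a hairpin precursor, loaded into an argonaute protein such as AGO2 and guided to mRNAs mainly by pairing of their seed, bases 2 to 8. The arm of the hairpin that is not loaded is usually lost, so both arms of a hairpin can have very different levels.

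The Ct of a well is the PCR cycle at which its signal crosses the threshold, so a lower Ct stands for a higher level. Wells that were undetermined or over Ct 35 were counted as 35, the cap, and each array was set to the mean of its own 6 small-RNA wells (SNORD and RNU6-2), called control wells below. The log2 difference of a miRNA is this value in My5/LV minus that in My5/CRBN, so that a positive log2 difference means a higher level in My5/CRBN cells. Changes of at least 3 fold (1.58 on the log2 scale) were counted. A miRNA at the cap on 1 array of a pair has only a bound, and the few at the cap on both (4 at 72 h and 5 at 120 h) have no fold. With 1 array per condition no difference has a replicate check, and no p-value is given. The number of arrays limits the precision. As a measure of spread, the log2 differences of the 6 control wells had an SD of 0.32 at 72 h and of 0.43 at 120 h (n = 6 wells). Over the 4 arrays the wells of the duplicated reverse transcription control lay 0.158 cycles apart (root mean square of 4 differences), those of the positive PCR control 0.600 cycles and those of cel-miR-39, a nematode miRNA assay that is near the detection limit here, 2.67 cycles. Between 354 and 367 miRNAs per array had a Ct under 35.

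The arrays were not equal in their controls. The mean Ct of the control wells was 19.1 in My5/CRBN and 20.4 in My5/LV cells at 72 h, and 18.7 and 19.6 at 120 h. An equal Ct in both lines therefore stands for a lower level in My5/CRBN cells, by 1.299 at 72 h and 0.902 at 120 h on the log2 scale. After normalization the reverse transcription control differed by 0.08 at 72 h and 0.07 at 120 h on the log2 scale. The positive PCR control, whose template is on the plate and not in the sample, differed by 0.16 at 72 h and by -1.59 at 120 h. Before normalization its Ct in My5/LV minus that in My5/CRBN cells was 1.45 cycles at 72 h and -0.69 at 120 h. The part of these offsets in the results at either time was not tested.

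The mature sequences of the 11 miRNAs that were at least 3 fold apart in the same direction at both times are given first, because they are the ones that both contrasts share. Sequences and positions are those of RefSeq in the GRCh38.p14 assembly, which held 330 of the 372 assays under the same name, and the seed is in capitals.
miR-205-5p: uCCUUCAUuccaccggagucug
miR-455-5p: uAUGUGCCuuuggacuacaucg
miR-143-3p: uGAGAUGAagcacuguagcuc
miR-145-3p: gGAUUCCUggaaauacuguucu
miR-144-3p: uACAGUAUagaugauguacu
miR-223-3p: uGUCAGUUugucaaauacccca
miR-155-5p: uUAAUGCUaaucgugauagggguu
miR-122-5p: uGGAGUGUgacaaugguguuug
miR-208a-3p: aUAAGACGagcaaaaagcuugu
miR-600: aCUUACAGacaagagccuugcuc
miR-513a-5p: uUCACAGGgaggugucau
All 11 seeds are different. miR-143-3p (chr5:149428978-149428998) and miR-145-3p (chr5:149430699-149430720) come from neighbouring hairpins on the plus strand, with 1.70 kb from the end of the first mature sequence to the start of the other, both within the span of the long non-coding RNA gene CARMN. The others lie on different chromosomes or far from each other. miR-205-5p (chr1:209432166-209432187, plus strand), miR-155-5p (chr21:25573983-25574006, plus strand) and miR-223-3p (chrX:66018937-66018958, plus strand) are within the spans of their own non-coding host genes, MIR205HG, MIR155HG and MIR223HG. miR-144-3p (chr17:28861548-28861567, minus strand) and miR-122-5p (chr18:58451088-58451109, plus strand) also lie within the spans of non-coding genes, LOC124903966 and MIR122HG. miR-455-5p (chr9:114209449-114209470, plus strand) lies within COL27A1, miR-208a-3p (chr14:23388602-23388623, minus strand) within MYH6 and miR-600 (chr9:123111561-123111583, minus strand) within STRBP and MIR600HG. miR-513a-5p has a pair of identical copies on the minus strand of chromosome X (chrX:147213538-147213555 and chrX:147225900-147225917), and the assay cannot tell them apart.

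Other sequences are shown because miRNAs with the same seed, or from the same hairpin, had different values in these cells.
miR-208b-3p: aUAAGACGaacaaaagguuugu
let-7a-5p: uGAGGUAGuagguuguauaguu
let-7f-5p: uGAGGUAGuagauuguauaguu
miR-17-5p: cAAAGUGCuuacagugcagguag
miR-20a-5p: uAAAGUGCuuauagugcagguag
miR-519d-3p: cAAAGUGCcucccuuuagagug
miR-133a-3p: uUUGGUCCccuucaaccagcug
miR-133b: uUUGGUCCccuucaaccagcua
miR-142-3p: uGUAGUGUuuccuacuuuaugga
miR-142-5p: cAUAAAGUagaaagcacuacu
miR-191-5p: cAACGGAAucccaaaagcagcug
miR-191-3p: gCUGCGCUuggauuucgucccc
miR-208b-3p has the seed of miR-208a-3p and differs from it at 3 of 22 positions. let-7a-5p and let-7f-5p differ at 1 of 22 positions, and so do miR-133a-3p and miR-133b. miR-519d-3p, from the placental cluster on chromosome 19, has the seed of the miR-17 family. How well the assays separate such close sequences was not tested.

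After 72 h of lenalidomide the miRNA levels of My5/CRBN cells were mostly equal to or above those of My5/LV cells. For 35 miRNAs the steady-state level was higher by 3 fold or more in My5/CRBN cells, which is 9.41% of the 372, and those of 2 (0.538%), miR-513a-5p and miR-302b-3p, were lower by as much. Of the 35 higher miRNAs, 5 were at the Ct cap in My5/LV cells, so that only a lower bound of their fold is known, and of the 2 lower ones miR-302b-3p was at the cap in My5/CRBN cells. Another 276 (74.2%) differed by less than 2 fold, with bounds counted at their value. The median log2 difference over all miRNAs was 0.40, and 255 of 372 were above 0. This median depends on the normalizer. Another normalizer was the mean of those miRNAs that had a Ct under 35 on every array of the series. It thus leaves out miRNAs at the cap on any array, and is called the mean of all miRNAs for short. With this mean in place of the control wells the median was 0.01 and the counts were 21 higher and 13 lower. The share of higher among the called miRNAs went from 94.6% to 61.8%. When the median of miRNAs of similar abundance was subtracted, the share was 45.7%.

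After 120 h the differences were wider and went in both directions. My5/CRBN cells had 24 miRNAs (6.45%) at 3 fold or more above My5/LV, 3 of them at the cap in My5/LV cells, and 24 (6.45%) at 3 fold or more below, 4 of them at the cap in My5/CRBN cells. The median log2 difference was -0.03, with 182 miRNAs above 0, and 253 miRNAs differed by less than 2 fold, with bounds counted at their value. These 253 include the 5 at the cap on both arrays, whose value is set by the control wells alone. With the mean of all miRNAs as normalizer 28 were higher and 17 lower, a share of 62.2% higher in place of 50%. The values just inside and outside the threshold were close to each other. At 72 h miR-223-5p (1.59) was counted and miR-10a-5p (1.58) was not.

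The 2 contrasts shared 10 higher miRNAs, which is 28.6% of the 35 at 72 h and 41.7% of the 24 at 120 h, and 1 lower miRNA, miR-513a-5p. No miRNA had a value or bound at least 3 fold higher at one time and at least 3 fold lower at the other. For some miRNAs at the cap the true fold is not known. For example, miR-224-5p had a log2 difference of 2.21 at 72 h and a bound of -1.34 at 120 h, with My5/CRBN cells at the cap. Over the 343 miRNAs that stayed below the cap on each of the 4 arrays, the log2 differences at 72 h and 120 h correlated with r = 0.43 (Pearson) and rho = 0.40 (Spearman). This describes miRNAs measured on the same 4 arrays, which are not independent of each other.

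**Figure D1:**
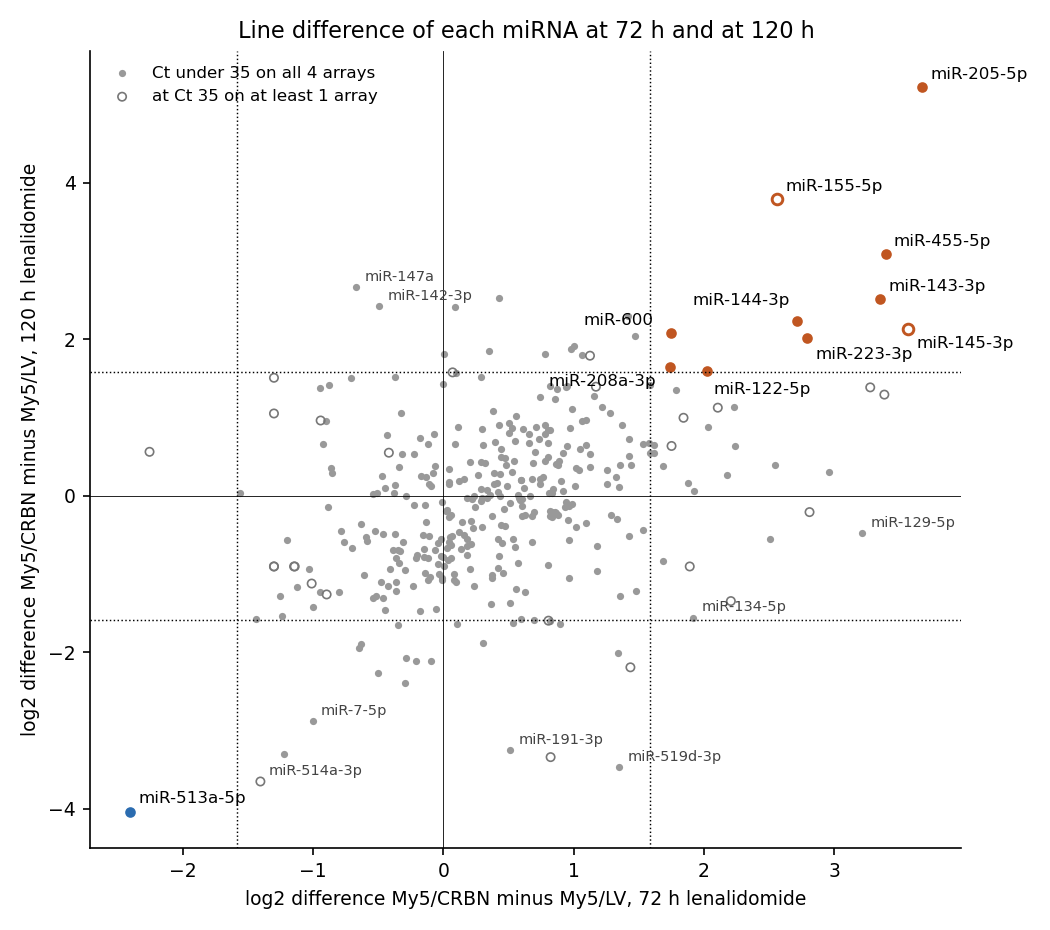
Log2 difference between My5/CRBN and My5/LV cells at 72 h (x axis) and at 120 h (y axis) of lenalidomide, 1 point per miRNA, with dotted lines at 3 fold; open points were at the Ct cap on at least 1 of the 4 arrays. The 10 miRNAs in the upper right corner were at least 3 fold higher at both times and miR-513a-5p at the lower left at least 3 fold lower at both; miR-342-3p (0.01 at 72 h and at least 11.16 at 120 h) is off the scale and not drawn.

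Of the 10 higher miRNAs, miR-205-5p had the largest log2 difference at both times. It is known from epithelial cells, where it keeps down the transcription factors ZEB1 and ZEB2. Its Ct was 25.4 in My5/CRBN and 30.4 in My5/LV cells at 72 h, and 24.3 and 30.4 at 120 h. Its level in My5/CRBN cells was thus 12.7 fold higher at 72 h (log2 difference 3.67) and 37.4 fold higher at 120 h (5.22). In the untreated cells the Ct values were 30.3 and 30.7, with a log2 difference of 1.00. The My5/LV arrays were alike at all 3 times, whereas both treated My5/CRBN arrays were well below them in Ct. The other arm, miR-205-3p, had log2 differences of 0.42 and -0.55.

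miR-455-5p, whose gene lies within the collagen gene COL27A1, was also far apart at both times. Its Ct was 27.1 in My5/CRBN and 31.8 in My5/LV cells at 72 h, and 26.06 and 30.05 at 120 h. The level was 10.5 fold higher in My5/CRBN cells at 72 h and 8.51 fold higher at 120 h, against a log2 difference of 1.09 without treatment.

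miR-143 and miR-145 are processed from 1 primary transcript and are best known from smooth muscle. miR-143-3p had a Ct of 24.5 in My5/CRBN and 29.2 in My5/LV cells at 72 h, and of 23.3 and 26.8 at 120 h, which made it 10.2 fold and 5.72 fold higher in My5/CRBN cells. It was already higher there without treatment (log2 difference 2.60). For miR-145-3p the Ct was 30.1 in My5/CRBN cells at 72 h and past the cap, at 41.0, in My5/LV cells, so that it was at least 11.8 fold higher. At 120 h its Ct was 29.4 and 32.5, a difference of 4.37 fold. The other arms were closer between the lines. miR-143-5p had log2 differences of 0.86 and -0.20 and miR-145-5p of 1.12 and 0.53, although all 4 come from the same transcript.

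miR-144-3p belongs to an erythroid cluster with miR-451a. Its Ct was 29.9 in My5/CRBN and 33.9 in My5/LV cells at 72 h, and 30.2 and 33.4 at 120 h. It was 6.56 fold higher in My5/CRBN cells at 72 h and 4.70 fold higher at 120 h, while both untreated arrays were past the cap. miR-144-5p was at least 4.31 fold higher at 72 h, with My5/LV at the cap, and 2.18 fold higher at 120 h. miR-451a, from the neighbouring hairpin, had log2 differences of only 0.43 and 0.90.

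miR-223-3p, the myeloid miRNA that restrains granulocyte activity, had a Ct of 25.3 in My5/CRBN and 29.3 in My5/LV cells at 72 h, and of 24.6 and 27.5 at 120 h. This is 6.91 fold and 4.04 fold higher in My5/CRBN cells. Without treatment its log2 difference was 1.86. Both arms pointed the same way, since miR-223-5p was 3.01 fold higher at 72 h and 2.67 fold higher at 120 h.

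miR-155-5p, from the B-cell integration cluster gene, is induced in activated lymphocytes. At 72 h its Ct was 28.9 in My5/CRBN and 32.8 in My5/LV cells, a difference of 5.90 fold. At 120 h the Ct was 30.3 in My5/CRBN cells and past the cap, at 38.3, in My5/LV cells, so that it was at least 13.8 fold higher. Its level was lower at 120 h than at 72 h in both lines, by more in My5/LV cells. miR-155-3p differed by 0.12 and 0.18.

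The other 3 shared miRNAs were of low level in My5/LV cells. miR-122-5p, the main miRNA of hepatocytes, was 4.06 fold and 3.03 fold higher in My5/CRBN cells, with a Ct of 30.7 against 34.0 at 72 h and 31.7 against 34.2 at 120 h. miR-208a-3p, from within the heart myosin gene MYH6, was 3.33 fold and 3.13 fold higher, with a Ct of 31.2 against 34.3 and 31.9 against 34.4. With a Ct cap of 32 their My5/LV wells are cut to 32, so only lower bounds remain. These were -0.0031 and -0.62 for miR-122-5p and -0.53 and -0.80 for miR-208a-3p, which give no direction. miR-600 was 3.36 fold and 4.22 fold higher, with a Ct of 29.3 against 32.3 and 27.96 against 30.9, and it was also higher without treatment (log2 difference 1.89).

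Of the 10 shared miRNAs, miR-143-3p, miR-205-5p, miR-223-3p and miR-455-5p were at least 3 fold higher at both times under all alternative settings tried. miR-513a-5p was at least 3 fold lower at both times under all of them.

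**Figure D2:**
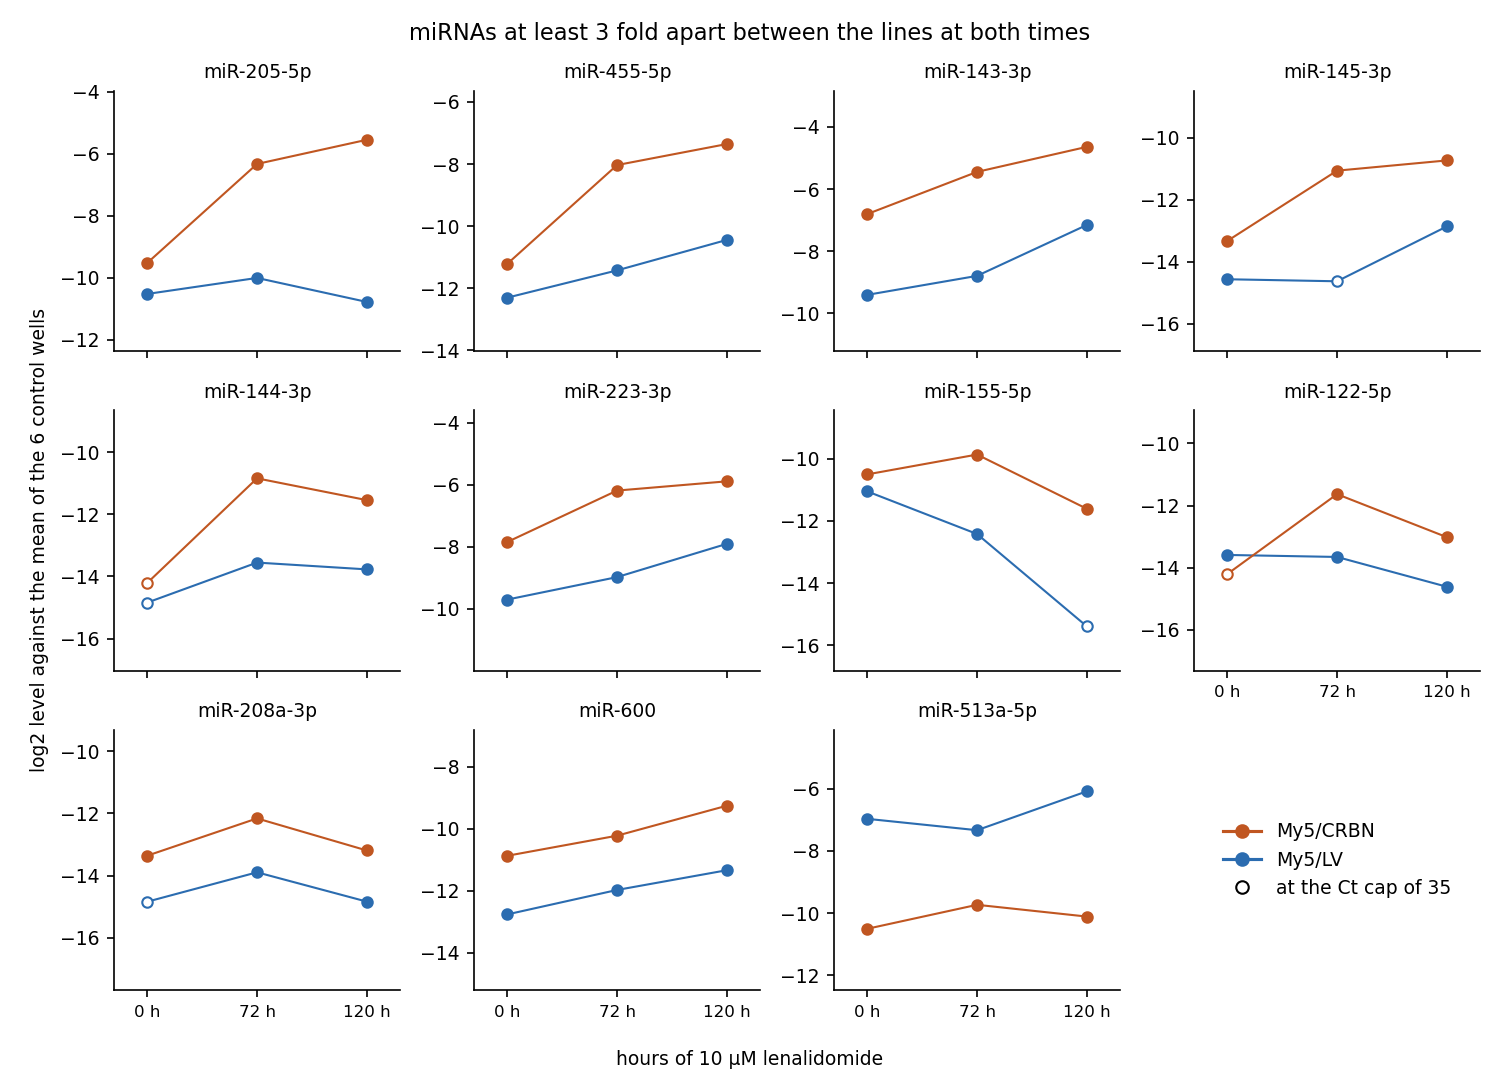
Log2 level against the mean of the control wells (y axis, with the same span in each panel) of the 11 miRNAs past 3 fold at both times, by hours of 10 µM lenalidomide (x axis), with 1 array per point and open points at the Ct cap. miR-205-5p parted from 1.00 without treatment to 3.67 and 5.22, while miR-143-3p and miR-600 were already apart at 0 h and miR-513a-5p was higher in My5/LV cells throughout.

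miR-513a-5p was the only miRNA past 3 fold as lower in My5/CRBN cells at both times. It belongs to a primate cluster of miRNA genes on chromosome X that is expressed mainly in testis. Its Ct was 28.8 in My5/CRBN and 27.7 in My5/LV cells at 72 h, and 28.8 and 25.7 at 120 h. The level was 5.29 fold lower in My5/CRBN cells at 72 h and 16.4 fold lower at 120 h. It was also lower without treatment (log2 difference -3.54) and in the cells with EIF2C2 cDNA and 72 h of lenalidomide (-3.92), so that My5/LV was higher in all 4 of these pairs.

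The other assays of this X-chromosome cluster did not all follow. miR-514a-3p had a Ct of 32.4 in My5/CRBN and 32.3 in My5/LV cells at 72 h, a log2 difference of -1.40. At 120 h it was past the cap in My5/CRBN cells (Ct 35.7) against a Ct of 32.3 in My5/LV cells, at least 12.5 fold lower. miR-506-3p, 4.84 kb from the nearer copy of the miR-513a gene, had log2 differences of 0.96 and -1.05, miR-508-5p of 1.04 and 0.33, and miR-509-3p of 0.63 and -0.25. Over the 5 assays, 1 was at least 3 fold lower at 72 h and 2 at 120 h, and 0 were at least 3 fold higher at either time. The median of the list was 0.63 at 72 h and -1.05 at 120 h, against 0.40 and -0.03 over all miRNAs.

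Another 25 miRNAs reached 3 fold in favour of My5/CRBN cells only at 72 h. The largest of these with a Ct under 35 on both arrays was miR-136-5p, an assay of the imprinted DLK1-DIO3 region, with a Ct of 29.6 in My5/CRBN and 34.2 in My5/LV cells (9.68 fold). miR-129-5p, known from brain, had a Ct of 23.1 against 27.6 (9.28 fold) and miR-125a-3p one of 24.6 against 28.9 (7.77 fold). miR-539-5p, also of the DLK1-DIO3 region, was at least 10.4 fold higher, with My5/LV cells at the cap. At 120 h the Ct values were 27.5 and 27.9 for miR-129-5p and 27.8 and 29.0 for miR-125a-3p, log2 differences of -0.48 and 0.31. miR-539-5p had a log2 difference of 1.29 there, and for miR-136-5p, at the cap in My5/LV cells, a bound of 1.39 is known. Over the 25 miRNAs the median log2 difference was 2.03 at 72 h and 0.40 at 120 h, and 18 of them were above 0 at 120 h.

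Some members of this group had a level well within the range of the assay. miR-28-3p, named after its values were seen, had a Ct of 22.4 in My5/CRBN and 25.8 in My5/LV cells at 72 h (4.52 fold) and of 23.4 and 24.6 at 120 h (1.20 fold). miR-134-5p, of the DLK1-DIO3 region and known from neurons, had a Ct of 24.99 against 28.2 at 72 h (3.78 fold higher) and of 28.3 against 27.7 at 120 h (2.94 fold lower). In all, 10 of the 35 miRNAs higher at 72 h had a Ct under 28 on either array. On the My5/CRBN array at 72 h, 6 of the 25 had a Ct under 28, against 241 of all 372 miRNAs. Such levels were thus rarer in this group than on the whole array.

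miR-106a-3p, the rarer arm of a miRNA of the miR-17 family, had a Ct of 31.9 in My5/CRBN cells at 72 h against 35.6 in My5/LV cells and was at least 3.37 fold higher. At 120 h its Ct was 33.5 against 35.5, so that My5/LV cells were again past the cap, and the bound of 1.56 fold did not reach the threshold. With a cap of 32 the My5/LV well is cut to 32, and the lower bound at 72 h was -1.25, which gives no direction. The corresponding arm of its paralog, miR-106b-3p, differed by -0.17 and 0.26, with Ct values between 26.7 and 27.9.

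At 120 h only, 14 miRNAs reached 3 fold in favour of My5/CRBN cells. miR-142-3p, which is restricted to blood cells and is among the most abundant miRNAs of lymphocytes, had the lowest Ct of all miRNAs in My5/CRBN cells at 120 h. Its Ct was 12.4 there and 15.8 in My5/LV cells, against 15.8 and 16.6 at 72 h. The log2 difference was thus 2.43 at 120 h (5.38 fold higher) and -0.49 at 72 h. The array of My5/CRBN cells at 120 h stood apart, since the other 3 lay within 1 cycle of each other. miR-142-5p, the other arm, had a Ct of 19.1 against 20.7 at 120 h, a log2 difference of 0.66.

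miR-22, transcribed from its own host gene MIR22HG, was higher in My5/CRBN cells in both arms. miR-22-3p had a Ct of 21.2 in My5/CRBN and 23.9 in My5/LV cells at 72 h, and of 20.2 and 23.4 at 120 h. It was 2.67 fold higher at 72 h and 4.92 fold higher at 120 h. miR-22-5p was 2.09 fold and 3.50 fold higher. Without treatment the log2 differences of the arms were 0.11 and 0.02, so that the lines were alike before the drug.

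miR-147a had a Ct of 31.0 in My5/CRBN and 34.6 in My5/LV cells at 120 h (6.37 fold higher), and miR-549a one of 30.4 against 33.8 (5.78 fold). miR-30c-1-3p, the rarer arm of a miR-30 hairpin, had a Ct of 29.6 against 32.9 (5.30 fold). At 72 h these 3 were within 2 fold. miR-551b-3p was 3.60 fold higher at 120 h and 1.28 fold higher at 72 h, whereas its log2 difference without treatment was 3.97. Named after their values were seen, miR-375, known from pancreatic islets, was 2.77 fold higher at 72 h and 4.11 fold at 120 h, miR-132-3p, induced by CREB in neurons, 2.00 and 3.76 fold, and miR-21-3p, the rarer arm of miR-21, 1.72 and 3.50 fold.

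The largest value at 120 h was that of miR-342-3p, which is transcribed from within the EVL gene. Its well was undetermined in My5/LV cells, against a Ct of 22.9 in My5/CRBN cells, so that the formal bound is a log2 difference of 11.16. At 72 h its Ct was 23.2 and 24.5, a log2 difference of 0.01. Its hairpin partner miR-342-5p was read at a Ct of 27.2 in My5/CRBN and 27.3 in My5/LV cells at 120 h, a log2 difference of -0.76. A single undetermined well thus carries the value of miR-342-3p.

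Lower in My5/CRBN cells by 3 fold or more at 120 h, but not at 72 h, were 23 miRNAs. miR-519d-3p had a Ct of 34.5 in My5/CRBN and 31.9 in My5/LV cells at 120 h (11.03 fold lower), but of 31.5 and 34.1 at 72 h (2.55 fold higher). miR-191-3p had a Ct of 26.4 against 24.1 at 120 h (9.54 fold lower) and of 20.6 against 22.4 at 72 h (1.43 fold higher). Both treated 120-h arrays were above both 72-h arrays in the Ct of miR-191-3p, and My5/CRBN cells were highest. The main arm, miR-191-5p, did not follow, with log2 differences of -0.46 at 72 h and -0.48 at 120 h.

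miR-7-5p, which in many tissues restrains EGF receptor signalling, was 2.00 fold lower in My5/CRBN cells at 72 h (Ct 23.3 against 23.6) and 7.36 fold lower at 120 h (23.6 against 21.7). miR-218-5p, transcribed from within SLIT2 and SLIT3, was 2.33 fold lower at 72 h and 9.84 fold lower at 120 h, and its log2 difference was -2.24 without treatment. miR-18a-3p, the rarer arm of a member of the miR-17-92 cluster, was 1.42 fold lower at 72 h and 4.78 fold lower at 120 h. miR-335-3p, from within the imprinted gene MEST, was 1.07 and 4.32 fold lower and miR-149-5p 1.22 and 4.20 fold lower. miR-34c-5p, of a hairpin induced by p53, was at the cap in My5/CRBN cells at 120 h and at least 10.1 fold lower, while miR-34c-3p differed by 0.09. Over the 23 miRNAs the median log2 difference was 0.10 at 72 h and -2.07 at 120 h, with 11 of them below 0 at 72 h.

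Among abundant miRNAs, let-7f-5p was 3.11 fold lower in My5/CRBN cells at 120 h, with a Ct of 17.8 against 17.1, and 1.07 fold higher at 72 h, with 17.7 against 19.1. let-7a-5p, with the same seed, differed by 0.44 at 72 h and by -0.38 at 120 h. miR-133b was 3.04 fold lower in My5/CRBN cells at 120 h (Ct 22.8 against 22.1), whereas miR-133a-3p was 2.65 fold higher (22.2 against 24.5). miR-208b-3p was at least 4.57 fold lower at 120 h, in contrast to miR-208a-3p above, and at least 2.70 fold higher at 72 h, each time with 1 array at the cap.

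Between 72 h and 120 h the difference between the lines moved in either direction. Among the miRNAs below the cap on each array it dropped most for miR-519d-3p (from 1.35 to -3.46), miR-191-3p (0.51 to -3.25), miR-129-5p (3.21 to -0.48) and miR-134-5p (1.92 to -1.56). It went up most for miR-147a (-0.67 to 2.67), miR-142-3p (-0.49 to 2.43), miR-33a-5p (-0.94 to 1.38), which lies within the cholesterol regulator gene SREBF2, and miR-30c-1-3p (0.09 to 2.41). The difference is made of a change in each line. For miR-142-3p the log2 level against the control wells changed by 2.97 in My5/CRBN and by 0.05 in My5/LV cells from 72 h to 120 h. For miR-519d-3p the level changed by -3.40 in My5/CRBN cells and by 1.42 in My5/LV cells. For miR-191-3p it changed by -6.22 in My5/CRBN and by -2.45 in My5/LV cells.

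**Figure D3:**
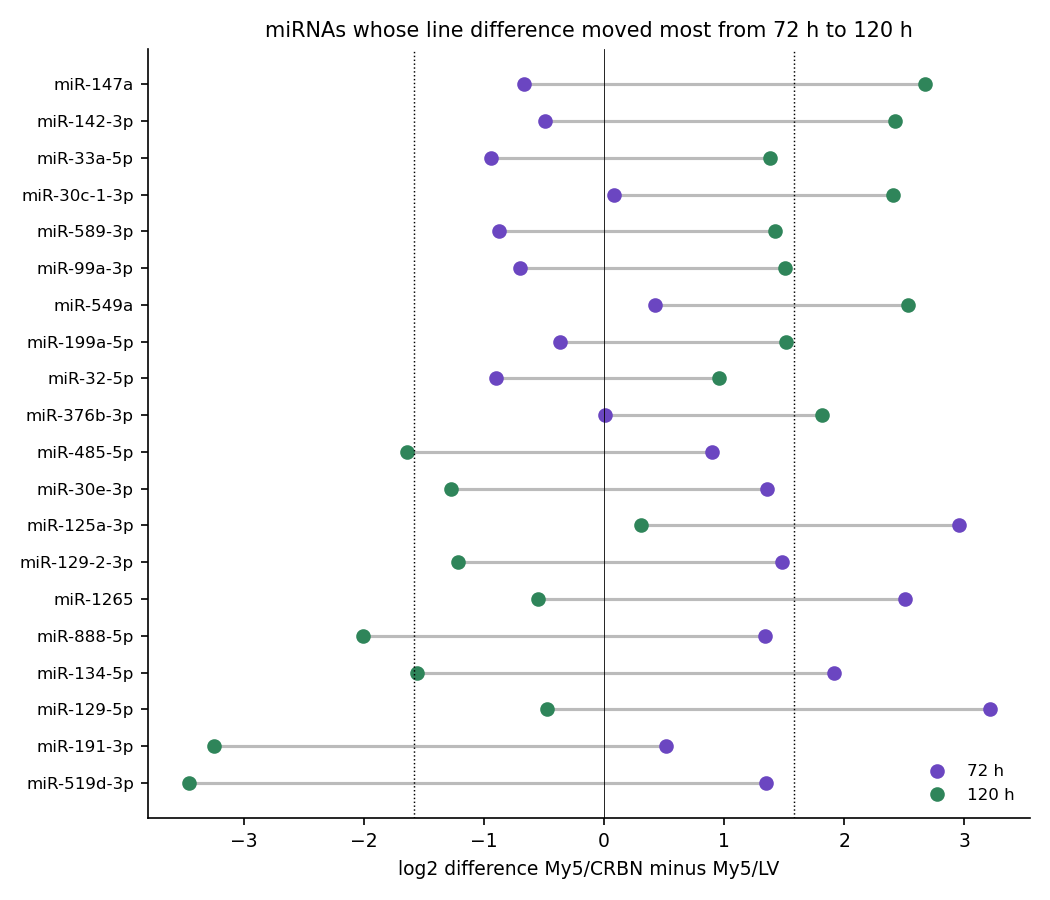
Log2 difference between My5/CRBN and My5/LV cells (x axis) at 72 h and at 120 h for the 20 miRNAs whose difference moved most between the times in each direction (10 each), among those below the Ct cap on each of the 4 arrays; dotted lines mark 3 fold. Most of them were past 3 fold at no more than 1 of the times, such as miR-142-3p with -0.49 and 2.43 or miR-129-5p with 3.21 and -0.48.

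Each line was also set against its own untreated array. Of the 10 miRNAs higher at both times, 6 were at least 3 fold above the untreated level in My5/CRBN cells at 72 h, where 37 of all 372 were (9.95%), and 0 were in My5/LV cells, where 2 of 372 were (0.538%). At 120 h, 7 of the 10 were at least 3 fold above the untreated level in My5/CRBN cells (5.11% of all) and 4 in My5/LV cells (4.3% of all). miR-205-5p was above its untreated level by 3.19 and 3.97 in My5/CRBN cells and by 0.52 and -0.26 in My5/LV cells. For miR-155-5p the log2 level in My5/LV cells changed by -1.37 from the untreated array to 72 h and by -4.35 to 120 h, a bound since the well was at the cap. Of the 23 miRNAs that were at least 3 fold lower only at 120 h, 10 were lower by 3 fold or more in My5/CRBN cells at 120 h than at 72 h (82 of all miRNAs, 22%), and 7 were at least 3 fold higher at 120 h than at 72 h in My5/LV cells (16 of all miRNAs, 4.3%). These sets were chosen on the same arrays, so the counts describe them and are not independent of the choice.

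Both arms of 86 hairpins were on the array, and for 72 hairpins both were below the cap on each of the 4 arrays. The log2 differences of the arms lay a median of 0.67 apart at 72 h and 0.77 apart at 120 h. The arms were at least 3 fold apart for 7 hairpins at 72 h and for 14 at 120 h, and miR-143, miR-205, miR-23b and miR-33a were so at both times. The widest gaps were those of miR-205, with 3.25 at 72 h and 5.77 at 120 h. At 120 h miR-363 followed, with 1.11 for miR-363-3p and -2.11 for miR-363-5p. miR-33a turned over between the times, with -0.94 for the 5p arm and 1.18 for the 3p arm at 72 h, and 1.38 and -0.64 at 120 h.

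The miRNAs were further grouped into 21 families, gene clusters and lineage lists. The counts of list members past 3 fold are to be read against those of the whole array, 9.41% higher and 0.538% lower at 72 h and 6.45% each way at 120 h. The 10 assays of the growth-promoting miR-17 family had a median log2 difference of -0.32 at 72 h and of -0.64 at 120 h, with 7 below 0 each time, and both medians were below 0 with all normalizers tried. The 28 miRNAs with a Ct under 20 in untreated My5/LV cells had medians of -0.34 and -0.52. Their lower quartiles were -0.51 at 72 h and -0.85 at 120 h. The list is of mixed abundance, as it also holds rarer arms such as miR-20a-3p and miR-106a-3p, with mean Ct values of 23.2 and 33.9. Of its abundant members, miR-20a-5p had log2 differences of -1.03 and -0.93, miR-17-5p of -0.80 and -1.23 and miR-106b-5p of -0.76 and -0.59, with Ct values between 16.6 and 19.4. Without treatment these 3 differed by 0.12, -0.16 and 0.16. Of the list, 1 member, miR-106a-3p, was at least 3 fold higher at 72 h and 0 at 120 h. miR-18 and miR-19, from the same clusters, had medians of -0.38 and -0.17 over 7 assays, with miR-18a-3p as the single member past 3 fold.

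The let-7 family, which restrains RAS, MYC and HMGA2, had a median of 0.12 at 72 h over its 11 assays. It turned to -0.27 with the mean of all miRNAs as normalizer. At 120 h the median was -0.52, with 10 of 11 below 0. This is close to the medians at 120 h of all miRNAs under Ct 20 (-0.52), from 20 to 22 (-0.53) and from 22 to 24 (-0.53) in untreated My5/LV cells. Only let-7f-5p was past 3 fold, at 120 h. The miR-25/miR-92 family had medians of 0.11 and -0.14 over 10 assays. The miR-130/miR-301 family had 0.09 and -0.41 over 4, the miR-23/24/26/27 list 0.03 and -0.49 over 11, the miR-29 and miR-30 list 0.07 and 0.10 over 13, and the seed group of miR-15, miR-16 and miR-107, of which miR-15 and miR-16 target BCL2, 0.16 and -0.07 over 11. At 72 h the medians of these 5 lists were below 0 with the mean of all miRNAs as normalizer. Of their 49 assays 0 were past 3 fold at 72 h. At 120 h 2 were, miR-363-5p as lower and miR-30c-1-3p as higher.

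The miRNAs of blood cells were spread to both sides of 0. Of the 8 assays of this list, miR-223-3p and miR-223-5p were at least 3 fold higher at 72 h and miR-223-3p and miR-142-3p at 120 h, and 0 were at least 3 fold lower. The median was 0.05 at 72 h, below 0 with 3 of the other normalizers, and 0.78 at 120 h. miR-150-5p, the miRNA of mature lymphocytes that targets MYB, had a Ct between 19.3 and 20.2 on all 4 arrays and log2 differences of -0.34 and -0.86. miR-146a-5p, which is induced by NF-kB and limits its signalling, was 1.34 fold lower at 72 h and 2.22 fold lower at 120 h, and miR-146b-5p 1.28 and 2.14 fold lower, in contrast to miR-155-5p of the same list. In the list of miR-21, miR-221 and miR-181, which are often raised in myeloma, miR-222-5p (2.24 at 72 h) and miR-21-3p (1.81 at 120 h) were the members past 3 fold of 12. miR-21-5p itself was 1.82 fold and 1.33 fold higher, and miR-181a-5p had log2 differences of -0.33 and 1.06.

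Lists of other tissues held some of the widest single differences. In the list of epithelial miRNAs, miR-205-5p and miR-200a-5p (1.62 at 72 h) were the members past 3 fold of 9, whereas the abundant members were lower in My5/CRBN cells. miR-200c-3p was 2.00 fold and 2.68 fold lower, and log2 differences were -1.24 and -1.53 for miR-200b-3p and -1.20 and -0.57 for miR-141-3p. The list median was 0.42 at 72 h and -0.57 at 120 h. The 4 muscle miRNAs had differences from 0.74 to 1.05 at 72 h and medians of 0.88 and 0.38, with miR-133b as the single member past 3 fold, at 120 h. Without treatment their median was already 0.76, with all 4 above 0 and miR-206 past 3 fold as higher (1.95). Of the 4 assays of miR-143 and miR-145, the pair described above, miR-143-3p and miR-145-3p, were past 3 fold as higher at each time (9.41% of all miRNAs at 72 h and 6.45% at 120 h), and the medians were 2.24 and 1.33.

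The imprinted DLK1-DIO3 region on chromosome 14 was the largest cluster, with 29 assays. Its median was 0.52 at 72 h, with 25 assays above 0, against 0.40 and 255 of 372 over all miRNAs. With the mean of all miRNAs as normalizer the cluster median at 72 h was 0.13. Most of its assays had a mean Ct over 28 on the 4 arrays. The 174 miRNAs from Ct 28 to 35 in untreated My5/LV cells had a median of 0.69 at 72 h. At 120 h the cluster median was -0.04, where the sign changed with 2 of the other normalizers. At 72 h 4 of the 29 were past 3 fold, all as higher, against 35 of 372 on the whole array (9.41%). They were miR-134-5p, miR-136-5p, miR-377-5p and miR-539-5p. At 120 h miR-299-5p and miR-376b-3p were past it as higher and miR-376a-3p, miR-377-3p and miR-485-5p as lower, against 24 each way on the whole array (6.45%). The choice to name miR-376a-3p, miR-377-3p and miR-377-5p was made with their values in view. miR-376a-3p and miR-376b-3p have the same seed and went opposite ways, with -1.95 and 1.82.

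The placental C19MC cluster had medians of 0.30 (-0.09 with the mean of all miRNAs) and 0.36 over 9 assays, with miR-498 (2.81) and miR-524-5p (1.69) at least 3 fold higher at 72 h and miR-519d-3p lower at 120 h. The 8 pluripotency miRNAs of the miR-302 and miR-371 list had 0.62 and 0.20, with miR-302b-3p as the single member past 3 fold, at least 4.77 fold lower at 72 h. The 10 p53-linked miRNAs had 0.50 and 0.17, with miR-34c-5p past 3 fold at 120 h, and the 11 of miR-10, miR-99 and miR-125 had 0.50 and 0.31, with miR-125a-3p past 3 fold at 72 h. The 4 assays of the X-chromosome cluster of miR-424 and miR-503 had medians of 0.67 and 0.13 and 0 past 3 fold.

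**Figure D4:**
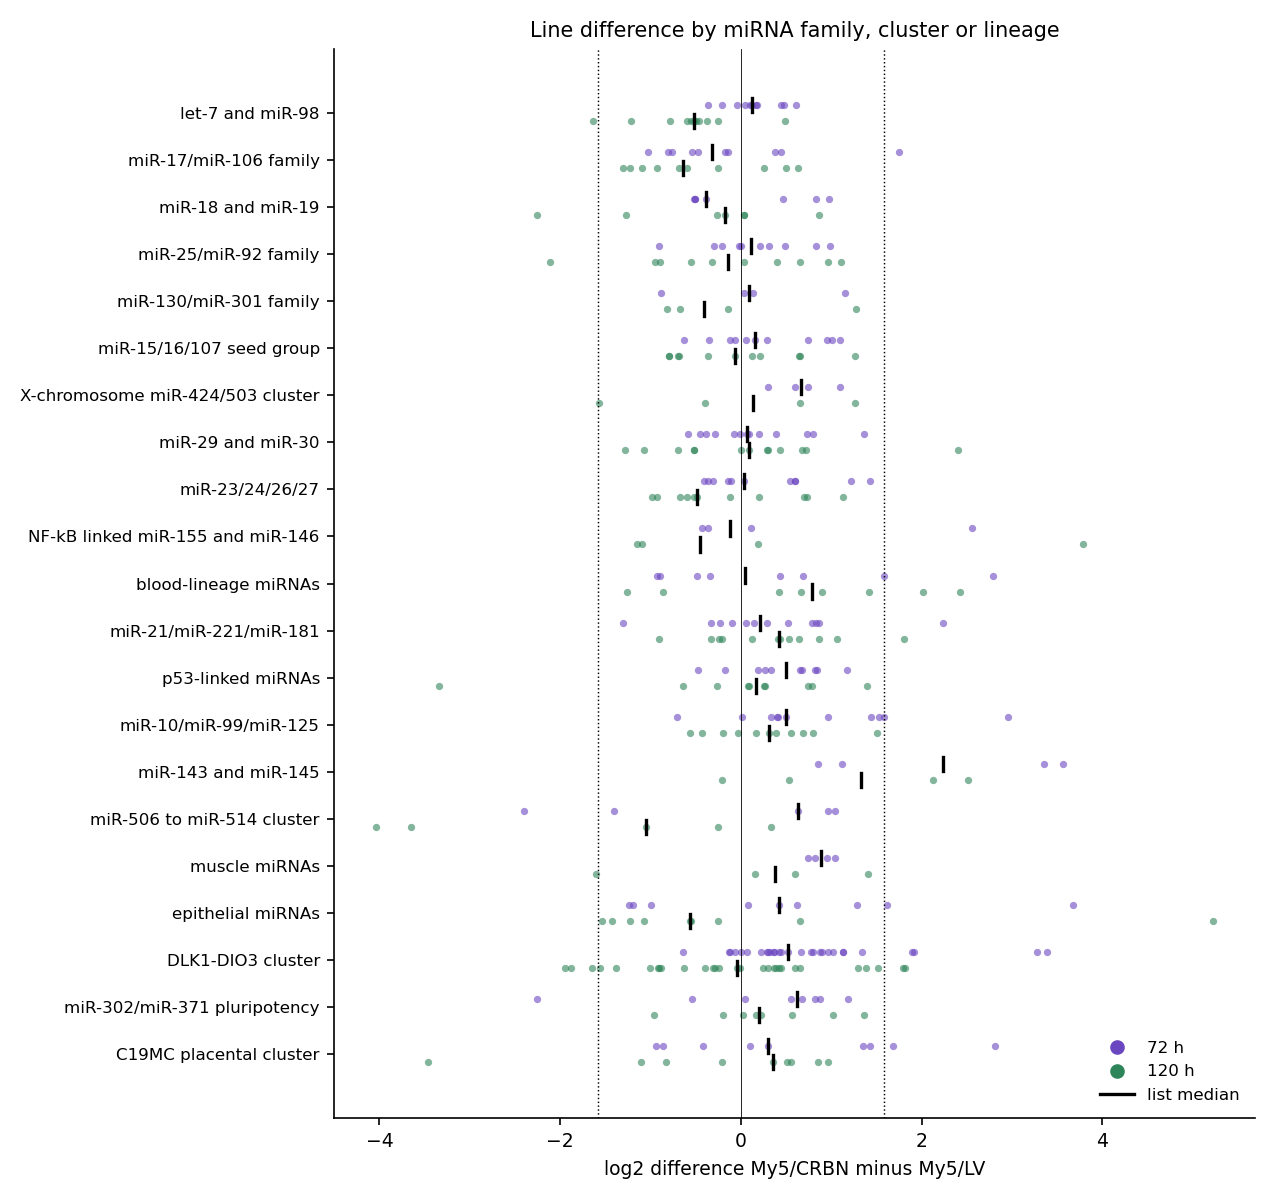
Log2 difference between My5/CRBN and My5/LV cells (x axis) of the members of the 21 lists (y axis) at 72 h and at 120 h, with list medians as black bars and 3 fold as dotted lines. Most members lie within 3 fold. The let-7 and miR-17 families sit mostly near or below 0 at 120 h (medians -0.52 and -0.64), while miR-143 and miR-145 have medians of 2.24 and 1.33.

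The differences followed the abundance of the miRNA. Sorted by the Ct in untreated My5/LV cells, an array outside these contrasts, the median log2 difference at 72 h was -0.34 for the 28 miRNAs under Ct 20 and 0.98 for the 45 miRNAs from Ct 32 to 35. At 120 h the same classes had medians of -0.52 and 0.51. Without treatment they had -0.10 and -0.22. Of the 35 miRNAs at least 3 fold higher at 72 h, 29 had a Ct from 28 to 35 in untreated My5/LV cells, as had 174 of all 372 miRNAs. Among the 180 miRNAs under Ct 28 there, 2 were past 3 fold as higher and 1 as lower at 72 h, and 5 as higher and 10 as lower at 120 h. At 72 h the My5/CRBN array also had the lower control Ct, and the part of this in the low-level miRNAs was not tested.

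**Figure D5:**
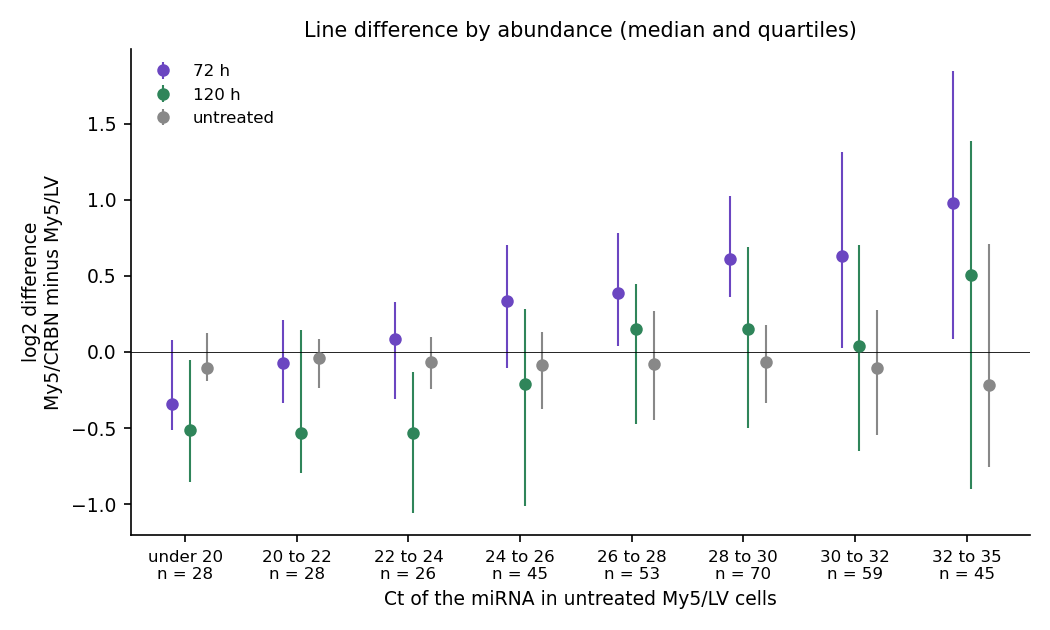
Median log2 difference between My5/CRBN and My5/LV cells (y axis, bars from the lower to the upper quartile) in classes of miRNAs by their Ct in untreated My5/LV cells (x axis, abundant miRNAs at the left). At 72 h the medians go from -0.34 to 0.98 and at 120 h from -0.52 to 0.51, while the untreated pair stays between -0.22 and -0.04.

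The untreated pair had fewer differences than either treated pair. Without lenalidomide 8 miRNAs were past 3 fold as higher in My5/CRBN cells (2.15%) and 7 as lower (1.88%). Of those 8, miR-143-3p, miR-223-3p and miR-600 were also higher at both treated times, and miR-551b-3p at 120 h. Of those 7, miR-513a-5p was lower at both times and miR-129-1-3p and miR-218-5p at 120 h. The other 7 of the 10 shared miRNAs had untreated log2 differences between -0.62 and 1.48, although miR-144-3p was at the cap on both untreated arrays and miR-122-5p and miR-208a-3p each on 1.

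Cells given EIF2C2 cDNA and then 72 h of lenalidomide are a further pair with the drug, on arrays that neither contrast uses. There 26 miRNAs were past 3 fold as higher in My5/CRBN cells (6.99%) and 7 as lower (1.88%), but 7 of these 33 calls were of miRNAs at the cap in both lines and so without a true fold. Of the 10 shared miRNAs, 7 were at least 3 fold higher in this pair too. They were miR-143-3p (3.02), miR-144-3p (3.37), miR-145-3p (2.92), miR-155-5p (3.13), miR-205-5p (3.72), miR-223-3p (2.50) and miR-455-5p (3.80). miR-122-5p (0.27) and miR-208a-3p (0.18) were not, and miR-600 was at -1.32. miR-22-3p had 1.03 and miR-142-3p -0.17 in this pair. miR-129-5p, which was past 3 fold at 72 h but not at 120 h, was past it there as well (1.98). Across 351 miRNAs the log2 differences of this pair and of the 72-h pair correlated with r = 0.56 (Pearson) and rho = 0.56 (Spearman), and across 343 those of this pair and of the 120-h pair with 0.40 and 0.36. These are again descriptions across miRNAs, all read with the same set of assays.

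The cells were checked against miRNAs of defined tissues. The blood-cell miRNAs miR-142-3p, miR-150-5p, miR-146a-5p and miR-181a-5p had Ct values from 12.4 to 21.5 on the 4 arrays. miR-223-3p (24.6 to 29.3), miR-451a (27.03 to 29.5) and miR-155-5p (28.9 to the cap) were of lower level. The summed log2 level of the blood-cell assays against the control wells was 3.57 in My5/CRBN and 4.06 in My5/LV cells at 72 h, and 6.33 and 4.15 at 120 h, where miR-142-3p made up the higher value. The liver miRNA miR-122-5p was between 30.7 and 34.2. Muscle and neural assays were not absent, with miR-1 between 18.7 and 21.3, miR-133a-3p between 22.2 and 25.3 and miR-9-5p between 21.98 and 24.9, and the epithelial miR-200c-3p was between 23.6 and 25.3. Others were of lower level, with miR-206 (muscle) between 28.6 and 31.0, miR-124-3p (neural) between 26.3 and 30.6 and miR-200a-3p (epithelial) between 29.0 and 30.4. The summed log2 level on the 4 arrays was from -0.70 to 0.23 for muscle assays. It was from -4.39 to -3.11 for neural and from -4.52 to -3.30 for epithelial assays. The efficiency of the assays is not known, so the Ct values of different miRNAs cannot be set against each other exactly.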

How the data were processed

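Total RNA of OCI-My5 cells was converted to cDNA (miScript II) and measured by SYBR Green PCR on miScript miRNA arrays with an Applied Biosystems instrument, 1 array per condition. The Ct values were used as deposited by the authors, in cycles and without normalization. The deposited table of fold changes against untreated My5/LV cells holds the authors' own comparisons and was not used. Names follow the Ct table, and 7 assays are named otherwise in the fold-change table. Wells over 35 or undetermined were set to 35, and levels were taken against the mean Ct of the 5 SNORD wells and the RNU6-2 well. Differences of at least 3 fold were counted over 372 miRNAs, with a bound where 1 array of a pair was at the cap. No test was made. miRNAs were named by size of difference in each direction and time, by sharing between times, by change from 72 h to 120 h, by hairpin arm, and by abundance within lists. The members and lists were chosen with earlier results of these data known. Alternatives were other normalizers, a Ct cap of 32, filters on Ct, and centring on miRNAs of similar Ct. The counting was tested on simulated data with large changes planted in miRNAs of higher level. That check covers the arithmetic, not the reliability of calls near 3 fold or near the detection limit. Positions of host genes are gene spans, without exons. Python 3.11.15, NumPy 2.4.6, pandas 2.3.3 and Matplotlib 3.10.9 were used.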

Additional observations from a re-analysis of the deposited data

Results flagged for a closer look

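The difference between the lines had opposite signs at 72 h and 120 h, each time by more than 2 SD of the control wells, for 16 miRNAs below the Ct cap on each of the 4 arrays, and for a further 8 with at least 1 array at the cap. Of the 16, 13 are miRNAs picked by the naming rule and are given here, and miR-373-3p, miR-409-3p and miR-483-5p are the others. Whether the 2 times differ was not tested, as each rests on 1 array per line. The control wells had Ct values from 17.2 to 22.9, so their SD does not measure the spread of miRNAs of low level. Duplicated wells of cel-miR-39, the assay near the detection limit, lay 2.67 cycles apart (root mean square). The log2 difference went from above to below 0 for miR-519d-3p (1.35 to -3.46), miR-134-5p (1.92 to -1.56), miR-888-5p (1.34 to -2.01), miR-129-2-3p (1.48 to -1.22), miR-30e-3p (1.36 to -1.28), miR-485-5p (0.90 to -1.64), miR-133b (0.82 to -1.60) and miR-506-3p (0.96 to -1.05). It went from below to above 0 for miR-147a (-0.67 to 2.67), miR-33a-5p (-0.94 to 1.38), miR-589-3p (-0.87 to 1.42), miR-99a-3p (-0.70 to 1.5) and miR-32-5p (-0.90 to 0.96). Of these, miR-30e-3p, miR-33a-5p, miR-133b and miR-32-5p had a Ct under 28 on all 4 arrays.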

How the results depend on the processing

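No paired analysis was possible because each condition has 1 array and the labels give no replicate numbers. At 72 h the counts of higher and lower miRNAs were 35 and 2. They were 21 and 13 with the mean of all miRNAs as normalizer (median 0.012), 16 and 19 after centring on miRNAs of similar Ct (median 0), 16 and 1 with a cap of 32, and 23 and 1 when a Ct under 30 was required in one of the lines. The lower count was 1 when miRNAs at the cap in either line were left out, and also, in an alternative chosen after seeing the data, when those at the cap on any of the 4 arrays were left out. At 120 h there were 15 higher with a cap of 32 and 14 lower with the requirement of a Ct under 30. Higher at both times were 4 with the cap of 32 and 5 with that requirement, in place of 10. Lower at both times were 3 with the mean of all miRNAs and 6 after centring, in place of 1. Under the cap of 32 the value at 72 h fell below 0 for miR-498 (-0.15), miR-122-5p (-0.0031), miR-208a-3p (-0.53), miR-106a-3p (-1.25), miR-144-5p (-0.89) and miR-708-3p (-1.16). At 120 h it did so for miR-122-5p (-0.62), miR-208a-3p (-0.80) and miR-299-5p (-0.90). In each case the My5/LV well was cut to 32, so the value is a lower bound and shows no turn of direction. For miR-299-5p both arrays read 32, and the control wells alone set the value. Without the alternative added after seeing the data, 9 of the 24 named miRNAs past 3 fold at 72 h and 19 of the 38 at 120 h stayed past it under all the others. A further 2 at 120 h, miR-342-3p and miR-888-5p, stayed past it wherever they had a value, but a Ct filter removed each once. Of the duplicated control wells, those of the assay near the detection limit were the farthest apart.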
